A study of Homo sapiens with 6 samples.

Results

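The genes described here are those carried by the mitochondrial chromosome itself, as distinct from the many nuclear genes whose proteins are imported into mitochondria. They were taken as every row of the deposited gene table placed on chromosome MT, a choice that used no expression value, which gave 37 of 58735 genes: 13 mRNA genes, 2 rRNA genes and 22 tRNA genes. All 37 averaged 0.5 FPKM or more over the libraries, and so passed the filter of the main test across all genes. FPKM is fragments per kilobase of gene scaled to sequencing depth, a level corrected for gene length.

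Human mitochondrial DNA is a small circle that is transcribed from both strands, called heavy and light, into long precursors that span many genes. The tRNAs lie between the mRNAs and rRNAs, and cutting the precursor at the ends of the tRNAs releases the other RNAs. All of the mRNAs encode core subunits of the respiratory chain or of ATP synthase, which work only in complex with nuclear-encoded partners, and the rRNAs and tRNAs serve the ribosome that translates them.

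RNA sequencing was performed on NCI-N87 cells, an established gastric cancer cell line, after infection with lentivirus in the presence of polybrene and selection with puromycin at 2 μg/ml into stable populations. The shNC group (shCtrl in the design text) carried the empty pSIH-H1-puro vector, and the shScamp1 group (shS1#1) carried the same vector with 1 shRNA against SCAMP1, which encodes a membrane protein of the secretory and recycling pathways. Each group had 3 libraries labelled as biological replicates. The paper leaves RNA-seq out of the assays it describes as independently repeated, and no source states separate infections. The p-values therefore measure the spread between these libraries, which may be technical. The comparison asks how the mitochondrial transcripts differed in SCAMP1-depleted cells, with a single shRNA standing for the depletion.

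The libraries held between 14311769 and 15988700 reads on genes. SCAMP1 was measured at 12.6, 12.1 and 11.5 FPKM in the shNC libraries and at 1.70, 1.37 and 1.99 FPKM in the shScamp1 libraries, so all 6 libraries matched their labels (log2 fold change -2.78, SE 0.14, limma adjusted p = 0.000248). All 8 epithelial markers examined were present, and 1 of 6 fibroblast markers and 1 of 6 leukocyte markers reached a mean of 0.5 FPKM. shScamp1 replicate 2 stood apart from its group. The chi-square per degree of freedom between its reads and those of its sister libraries was 44.1 and 34.5, against 1.97 to 3.10 for the other pairs within groups. Values without it are given beside the main measures and wherever they change a call that is named.

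Several of these genes share bases, which limits what gene-level reads can separate. Of the 5 overlapping pairs, the longest overlap is that of MT-ATP8 and MT-ATP6, both subunits of ATP synthase, which share 46 bases, or 22.2% of MT-ATP8. MT-ND4L and MT-ND4, both complex I subunits, share 7 bases. The first sequence below is the whole of MT-ATP8 at chrMT:8366-8572 and the other is the last 40 bases of MT-ND4L at chrMT:10727-10766, both on the plus strand of GRCh38 and taken from the GENCODE 29 transcripts, with the bases shared with the next gene in capitals.
MT-ATP8: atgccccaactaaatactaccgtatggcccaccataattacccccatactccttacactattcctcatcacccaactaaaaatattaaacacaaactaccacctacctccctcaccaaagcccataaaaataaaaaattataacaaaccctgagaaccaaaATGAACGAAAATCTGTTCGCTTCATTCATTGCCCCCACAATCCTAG
MT-ND4L: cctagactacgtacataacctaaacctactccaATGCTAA

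The mitochondrial genes took a share of reads that overlapped between the groups only through shScamp1 replicate 2. They drew 6.78%, 6.59% and 6.72% of the reads on genes in shNC and 6.29%, 9.21% and 6.09% in shScamp1. The mean was 6.70% ± 0.0958 (SD, n = 3) in shNC and 7.20% ± 1.75 (SD, n = 3) in shScamp1, and the groups overlapped (two-sided exact permutation test, p = 1). Replicate 2 was the highest of all 6 libraries and its sisters were the 2 lowest. Without it, the difference was -0.508 percentage points and the groups no longer overlapped, but 3 libraries against 2 cannot give a p under 0.2, and 3 against 3 cannot give one under 0.1. The Wilson 95% interval of each share was at most 0.0150 percentage points to either side, which covers counting error only. In bulk RNA, fewer mitochondria, fewer cells rich in them and less RNA in each cannot be told apart.

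The 3 kinds of mitochondrial gene did not follow the same pattern. The mRNA genes drew 5.999%, 5.81% and 5.98% of reads in shNC and 5.43%, 7.55% and 5.27% in shScamp1 (two-sided exact permutation test, p = 1), again with replicate 2 above and its sisters below every shNC library. The rRNA genes drew 0.724%, 0.733% and 0.697% in shNC and 0.808%, 1.602% and 0.778% in shScamp1. This share was higher in all 3 shScamp1 libraries than in any shNC library (two-sided exact permutation test, p = 0.1, the smallest the design allows). The tRNA genes drew 0.0566%, 0.0483% and 0.0451% in shNC and 0.0481%, 0.0557% and 0.0467% in shScamp1, which overlapped.

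**Figure D1:**
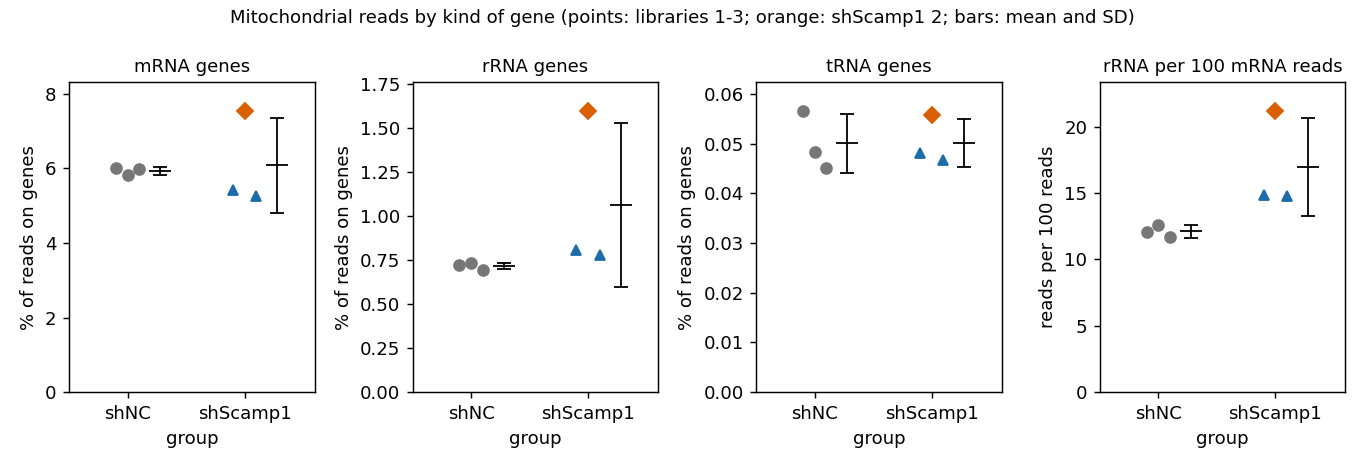
Reads on mitochondrial mRNA, rRNA and tRNA genes as a percent of the reads on genes in each library, and rRNA reads per 100 mRNA reads, by group, with a point per library and the mean ± SD beside the points. shScamp1 replicate 2 (orange) is apart from its sisters in the mRNA and rRNA panels, and in the last panel all 3 shScamp1 libraries lie above the shNC libraries.

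Set against mRNA in the same library, where the scaling between libraries cancels, the rRNA reads separated the groups. There were 12.1, 12.6 and 11.7 rRNA reads per 100 mRNA reads in shNC and 14.9, 21.2 and 14.8 in shScamp1. The mean was 1.40-fold higher in shScamp1, and 1.22-fold higher without replicate 2, with no overlap either way (two-sided exact permutation test, p = 0.1 with all 6 libraries and p = 0.2 without replicate 2). No source used here says whether libraries were made by poly(A) selection or by rRNA removal, and the part of that step in the rRNA reads was not tested.

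Mitochondrial mRNAs were among the most abundant of all RNAs per length, filling 8 of the 10 highest mean FPKM values over the 6 libraries. MT-CO1, the catalytic subunit of complex IV (cytochrome c oxidase), had the highest level of the 13, in shNC at 12102 ± 397 FPKM (SD, n = 3). The other complex IV subunits followed, MT-CO3 at 8820 ± 565 and MT-CO2 at 7936 ± 159 FPKM, and then MT-ATP6 at 5618 ± 535 FPKM. These 4 did not overlap with one another across the shNC libraries, and MT-CO1, MT-CO3 and MT-CO2 held the first 3 places in each of the 6 libraries. MT-ND4L, MT-ND4, MT-ND3 and MT-ND1, subunits of complex I (NADH dehydrogenase), came next with means from 3600 to 4093 FPKM, and each overlapped with its neighbour in the order. MT-CYB, the only mitochondrially encoded subunit of complex III, was at 3074 ± 91.8 FPKM, followed by the complex I subunits MT-ND2 at 2824 ± 133, MT-ND6 at 2111 ± 279 and MT-ND5 at 1846 ± 92.5 FPKM, of which the last pair overlapped. MT-ATP8 was lowest in every library, at 175 ± 20.1 FPKM, far under the MT-ATP6 level although both are read from the same transcript. The genes share 46 bases, which gene-level reads cannot separate, and the part of read assignment in this gap was not tested.

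**Figure D2:**
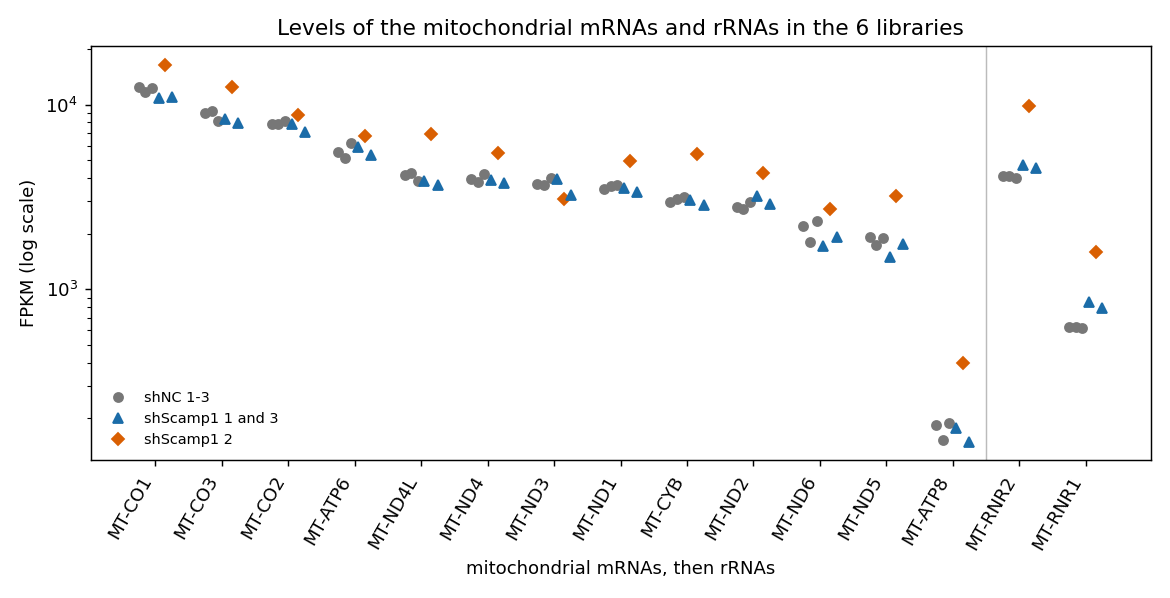
FPKM on a log axis of the 13 mitochondrial mRNAs, in order of their shNC mean, and of both rRNAs, with a point per library. shScamp1 replicate 2 (orange) is the highest of 6 for every gene shown other than MT-ND3, and its sisters (blue) lie above all shNC libraries (grey) only for the rRNAs.

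Among complex IV subunits, MT-CO1 was at 12409, 11654 and 12244 FPKM in shNC and at 10924, 16434 and 10966 FPKM in shScamp1. MT-CO3 was at 9048, 9236 and 8177 FPKM in shNC and at 8335, 12450 and 7942 FPKM in shScamp1. Replicate 2 was above every shNC library for both genes, and its sisters were below all of them for MT-CO1 only. Neither passed the test across all genes (limma, log2 fold change 0.051, SE 0.21, adjusted p = 0.893 for MT-CO1, and 0.090, SE 0.21, adjusted p = 0.807 for MT-CO3). Without replicate 2 both were below 0 and neither passed (limma, -0.14, SE 0.065, adjusted p = 0.164, and -0.11, SE 0.078, adjusted p = 0.331).

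Among complex I subunits, MT-ND2 was at 2800, 2704 and 2968 FPKM in shNC and at 3215, 4243 and 2881 FPKM in shScamp1. The groups overlapped through shScamp1 replicate 3, and the gene did not pass (limma log2 fold change 0.27, SE 0.17, adjusted p = 0.330, and 0.11, SE 0.071, adjusted p = 0.313 without replicate 2). As a percent of the summed FPKM of the 13 mRNAs, MT-ND2 took 4.65%, 4.61% and 4.86% in shNC and 5.55%, 5.25% and 5.25% in shScamp1, and it was the only mRNA of the 13 whose groups did not overlap on that scale (two-sided exact permutation test, p = 0.1, Benjamini-Hochberg adjusted over the 13 p = 0.827). MT-ND3 was the exception to the pattern of replicate 2, with 3722, 3664 and 3985 FPKM in shNC and 3945, 3088 and 3235 FPKM in shScamp1, where replicate 2 was lowest of all 6.

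MT-CYB of complex III was at 2981, 3076 and 3165 FPKM in shNC and at 3053, 5395 and 2864 FPKM in shScamp1 (limma log2 fold change 0.23, SE 0.25, adjusted p = 0.572, and -0.056, SE 0.055, adjusted p = 0.503 without replicate 2). For ATP synthase, MT-ATP6 was at 5515, 5142 and 6196 FPKM in shNC and at 5887, 6781 and 5360 FPKM in shScamp1 (limma log2 fold change 0.095, SE 0.15, adjusted p = 0.713, and 0.0042, SE 0.097, adjusted p = 0.981 without replicate 2). In both genes 2 of the 3 shScamp1 libraries lay close to the shNC values and replicate 2 lay above them. The summed FPKM of complex I mRNAs was 36.9%, 36.8% and 37.6% of that of all 13 in shNC and 37.4%, 37.8% and 37.5% in shScamp1 (two-sided exact permutation test, p = 0.3). The complex III share, which is MT-CYB alone, was 4.95%, 5.24% and 5.19% in shNC and 5.27%, 6.68% and 5.21% in shScamp1, with replicate 2 at 1.27-fold of its sisters (two-sided exact permutation test, p = 0.2). Complex IV mRNAs took 48.7%, 48.9% and 46.8% in shNC and 46.9%, 46.6% and 47.3% in shScamp1, which overlapped as well (two-sided exact permutation test, p = 0.3).

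MT-ND6 is the only mRNA of the light-strand transcript, and its level was set against those of the heavy-strand transcript. Its FPKM was 45.2%, 38.0% and 48.0% of the mean of the other 12 mRNAs in shNC and 36.5%, 41.6% and 43.5% in shScamp1, and the groups overlapped (two-sided exact permutation test, p = 0.4 with and without replicate 2). The 9 light-strand genes together drew 2.52%, 2.18% and 2.49% of mitochondrial reads in shNC and 2.13%, 2.03% and 2.36% in shScamp1, which also overlapped (p = 0.2 by the same exact test). How far reads were assigned by strand is not given in the sources used here.

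Both rRNAs were higher in every shScamp1 library. MT-RNR1, the rRNA of the small ribosomal subunit, was at 623, 627 and 616 FPKM in shNC and at 847, 1591 and 790 FPKM in shScamp1. The groups did not overlap and the shNC libraries lay close together, yet with all 6 libraries the gene did not pass (limma log2 fold change 0.72, SE 0.27, adjusted p = 0.129), and shScamp1 replicate 2 was 1.94-fold above the mean of its sisters. Without replicate 2 it passed, with a smaller fold change (limma log2 fold change 0.40, SE 0.043, adjusted p = 0.00269). MT-RNR2, the rRNA of the large subunit, was at 4081, 4126 and 3983 FPKM in shNC and at 4688, 9767 and 4514 FPKM in shScamp1. It passed in neither fit (limma log2 fold change 0.54, SE 0.31, adjusted p = 0.285 with all libraries, and 0.18, SE 0.051, adjusted p = 0.0522 without replicate 2).

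The rRNAs also differed in their ratio. The MT-RNR1 level was 15.3%, 15.2% and 15.5% of the MT-RNR2 level in shNC and 18.1%, 16.3% and 17.5% in shScamp1, with no overlap (two-sided exact permutation test, p = 0.1). Replicate 2 was the lowest of its group here, and without it the groups stood further apart (difference 2.48 percentage points against 1.98 with all 6). Transcription of the rRNAs can end at a site inside MT-TL1, the gene for a leucine tRNA that follows MT-RNR2, where the termination factor MTERF1 binds. MT-TL1 is shown because it marks this boundary, at chrMT:3230-3304 on the plus strand of GRCh38 from GENCODE 29, with the letters TGGCAGAGC, which lie within the known site, in capitals.
MT-TL1: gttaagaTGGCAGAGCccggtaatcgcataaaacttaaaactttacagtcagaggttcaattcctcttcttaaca

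Searched on both strands, these 9 letters occurred in 1 of the 37 mitochondrial genes (2.70%), MT-TL1 itself, which is a description of the letters and not of binding. MTERF1 was at a mean of 3.01 FPKM in each group (limma log2 fold change 0.0010, adjusted p = 0.995). MT-TL1 held 253, 173 and 191 reads in shNC and 177, 303 and 197 in shScamp1, and it did not pass (limma log2 fold change 0.27, SE 0.26, adjusted p = 0.523).

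The tRNA genes varied far more in level than the mRNAs, from a mean of 0.592 FPKM for MT-TQ to 2528 FPKM for MT-TC in shNC. 13 of the 22 had a mean of at least 10 reads, and the other 9 (MT-TF, MT-TI, MT-TQ, MT-TM, MT-TW, MT-TA, MT-TS1, MT-TD and MT-TK) held from 0 to 17 reads in any library, too few for a fold change. Mature tRNAs are short and heavily modified and are poorly captured in standard RNA libraries, so these reads are no measure of tRNA content. The 3 tRNA genes with the most reads, MT-TN, MT-TC and MT-TP, all belong to the light-strand transcript. They are shown because they carried most of the tRNA reads, on the minus strand of GRCh38 at chrMT:5657-5729, chrMT:5761-5826 and chrMT:15956-16023, from GENCODE 29, with the anticodon in capitals.
MT-TN: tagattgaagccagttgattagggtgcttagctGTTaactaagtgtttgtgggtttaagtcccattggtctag
MT-TC: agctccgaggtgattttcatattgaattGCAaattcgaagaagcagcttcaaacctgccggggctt
MT-TP: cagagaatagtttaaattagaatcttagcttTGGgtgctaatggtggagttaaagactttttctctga

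MT-TN, the asparagine tRNA, held 3181, 3194 and 2387 reads in shNC and 2541, 3674 and 2528 in shScamp1. MT-TC, the cysteine tRNA, held 3046, 2532 and 2419 in shNC and 2622, 1746 and 2361 in shScamp1. MT-TP, the proline tRNA, held 1146, 1194 and 1033 in shNC and 1030, 1627 and 1010 in shScamp1. The groups overlapped for all 3, with replicate 2 the highest of its group for MT-TN and MT-TP and the lowest for MT-TC. Other light-strand tRNA genes held few reads, such as MT-TQ with 0 to 4 and MT-TE with 15 to 24. MT-TC and MT-TY overlap by 1 base, and MT-TI and MT-TQ by 3 bases on opposite strands.

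Across the whole table, 8.82% of the 15556 genes tested passed at an adjusted p under 0.05 as higher in shScamp1 and 5.17% as lower (limma on log2 of FPKM plus 0.1, Benjamini-Hochberg adjustment). Of the 37 mitochondrial genes, limma called 0 higher and 0 lower. At an unadjusted p under 0.05 limma gave 1 higher (MT-RNR1) and 1 lower (MT-TF, which held at most 4 reads), and voom, run on the reads recovered from the FPKM values, called 0 after adjustment. The median log2 fold change of the 13 mRNAs was 0.11, with 10 above 0, beside a median of -0.022 over all genes tested. Without shScamp1 replicate 2 the background was 14.7% called higher and 13.2% called lower, and 1 of the 37 genes was called, MT-RNR1, as higher. In that fit the median of the mRNAs was -0.087, with 11 of 13 below 0, so the sign of the mRNA median was set by 1 library.

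The groups did not overlap, with shScamp1 higher, for 4 of the 37 genes (MT-RNR1, MT-RNR2, MT-TQ and MT-TD), beside 20.4% of all genes tested. They did not overlap with shScamp1 lower for 1 gene (MT-TF), beside 21.0%. MT-TQ held 1, 0 and 1 reads in shNC and 2, 4 and 1 in shScamp1, and MT-TD held 4, 5 and 0 against 5, 6 and 5. For both, the nearest libraries of the groups held equal reads, so the gap in FPKM came from scaling alone, with and without replicate 2. Without replicate 2, 4 genes were higher beside 27.9% of all genes, and 3 were lower (MT-CO1, MT-ND4L and MT-TF) beside 28.6%. All of these counts were under the background share.

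**Figure D3:**
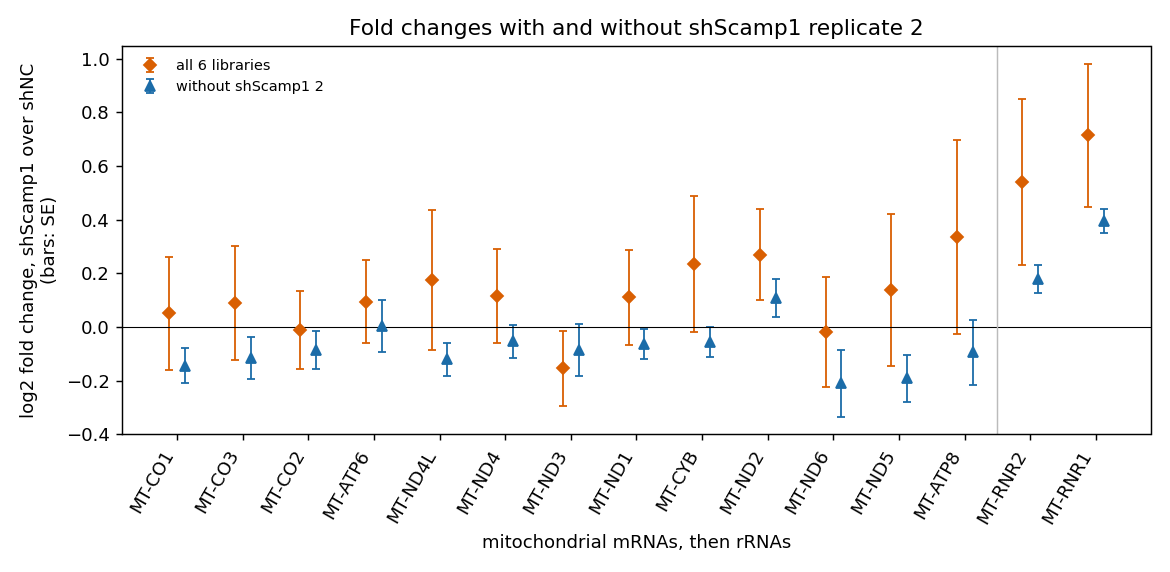
Log2 fold change of shScamp1 over shNC, with its SE, for the mitochondrial mRNAs and rRNAs, fitted with all 6 libraries (orange) and without shScamp1 replicate 2 (blue). Most mRNAs cross from above 0 to below 0 when the library is left out, and both rRNAs stay above 0.

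shScamp1 replicate 2 was higher than its sisters in most mitochondrial mRNAs and in both rRNAs. Its median log2 difference from the mean of replicates 1 and 3 was 0.58 for the 13 mRNAs, 12 of which were higher, and 1.02 for the rRNAs. It was 0.081 for the 13 tRNA genes with at least 10 reads and -0.016 for the nuclear genes tested, or -0.16 for those averaging 20 FPKM or more, medians that span differences in both directions. In shNC the same median for the mRNAs, each library against its sisters, was -0.015, -0.081 and 0.064. These are descriptions of 1 library and carry no test.

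Among the mRNAs, MT-ATP8 was furthest up in replicate 2, at 2.44-fold over its sisters, followed by MT-ND5 at 1.97-fold, MT-ND4L at 1.85-fold and MT-CYB at 1.82-fold. MT-CO1 was 1.502-fold higher, MT-ATP6 1.21-fold and MT-CO2 1.17-fold, and MT-ND3 was at 0.860 of its sisters. Neighbouring genes on the same strand thus differed: the MT-ATP8 level was 3.01% and 2.78% of that of MT-ATP6 in replicates 1 and 3, and 5.89% in replicate 2, against 2.95% to 3.32% in shNC. MT-ATP8 and MT-ATP6 share bases, and the part of read assignment in this ratio was not tested. Across the 13 mRNAs, Spearman's rho of the difference was 0.055 with length and 0.071 with GC percent (n = 13 genes of the same libraries, as a description). The shortest, MT-ATP8 (207 bases) and MT-ND4L (297 bases), were among the furthest up, and both share bases with a neighbour. The value for length rests partly on these genes, and no correlation without them was computed. Of the 2238 genes whose mean FPKM was 20 or more, 8 of the 20 with the largest upward difference were mitochondrial.

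**Figure D4:**
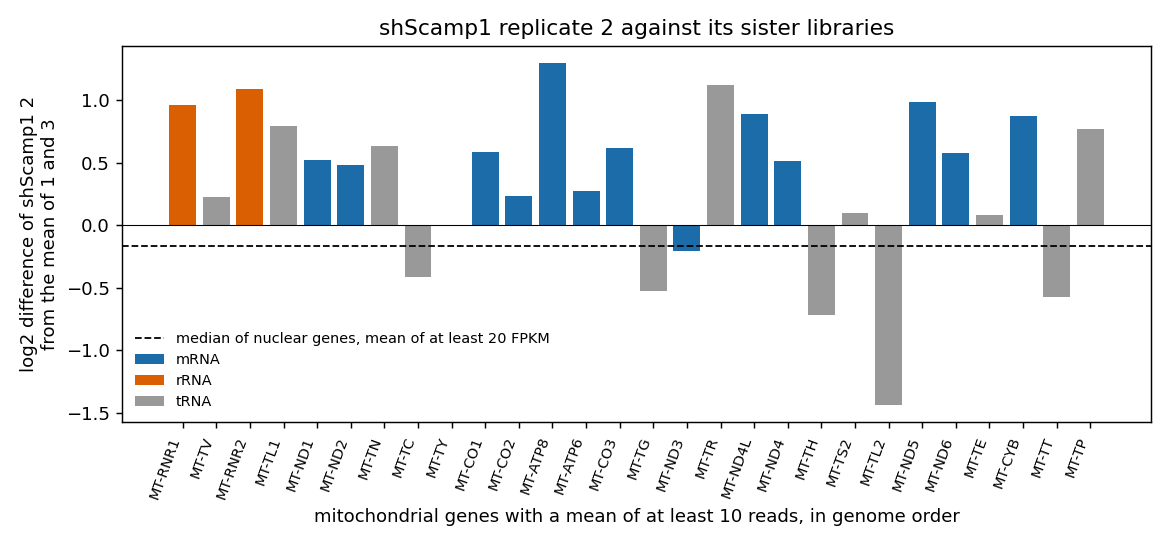
Log2 difference of shScamp1 replicate 2 from the mean of replicates 1 and 3, for the 28 mitochondrial genes with a mean of at least 10 reads, in genome order and coloured by kind. The rRNAs and 12 of 13 mRNAs lie above 0, the tRNA genes lie on both sides, and the dashed line is the median of nuclear genes whose mean FPKM was 20 or more.

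Gene length moved with this library in the nuclear genome. Among nuclear genes of this level, the median log2 difference of replicate 2 from its sisters was -0.63 for genes under 500 bases, -0.55 for those from 1000 up to 2000 bases, 0.029 for those from 4000 up to 8000 bases and 0.28 for 8000 bases or more. In the shNC libraries every such median was within 0.05 of 0. The SD of the differences over these genes was 0.451 in replicate 2, against 0.0798 to 0.0950 in shNC. The fold change of shScamp1 over shNC also moved with length. Without replicate 2, its median log2 value over these genes was -0.34 under 500 bases and 0.046 for 8000 bases or more. With all 6 libraries the values were -0.52 and 0.13. Results without replicate 2 are therefore not free of a length trend, although it is weaker there. Mitochondrial mRNAs, all under 2000 bases, were higher in replicate 2 other than MT-ND3, while nuclear genes of that length were lower in the median. The part of this library's length dependence in the mitochondrial values was not tested.

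**Figure D5:**
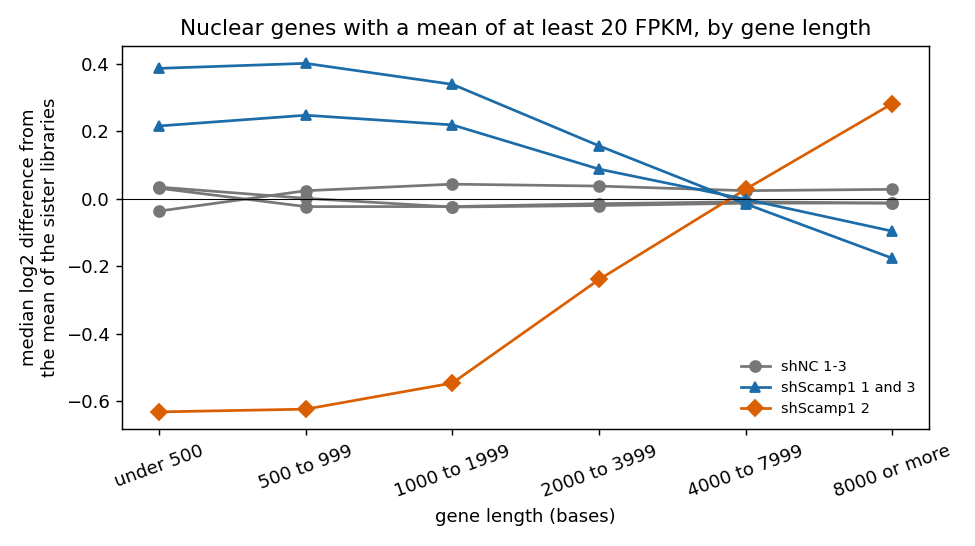
Median log2 difference of each library from the mean of its sister libraries, for nuclear genes whose mean FPKM was 20 or more, in 6 classes of gene length. The shNC libraries (grey) stay near 0, and shScamp1 replicate 2 (orange) goes from -0.63 for the shortest genes to 0.28 for the longest. Replicates 1 and 3 (blue) mirror it, because each is set against a mean that includes replicate 2.

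Genes at the ends of this difference were of several kinds. The 5 nuclear genes furthest down in replicate 2 were SNORD104, ATP5ME, AL162413.1, SNHG19 and KRT10, of which ATP5ME encodes a subunit of ATP synthase and was at 31.2, 3.34 and 22.8 FPKM in shScamp1. The 5 furthest up were RPSAP47, MKI67, MIR4292, MTATP6P1 and FAT1. RN7SL2, an abundant non-polyadenylated RNA of the signal recognition particle, was at 4296, 3463 and 4301 FPKM in shNC and 3231, 1455 and 4464 FPKM in shScamp1, so it was lowest where the mitochondrial rRNAs were highest. Of the nuclear-retained RNAs, MALAT1 rose (limma log2 fold change 0.56, adjusted p = 0.0220) and NEAT1 was at 65.1, 41.6 and 63.2 FPKM in shScamp1 against 44.7 to 45.4 in shNC (limma adjusted p = 0.294, and log2 fold change 0.51, adjusted p = 0.000429 without replicate 2). SNORD3A was at 1.15 FPKM or less, and RN7SK, RN7SL1, RMRP and RPPH1 were listed at 0. The part of RNA quality or library type in the mitochondrial values was not tested.

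Reads of mitochondrial origin can also be placed on nuclear copies of mitochondrial DNA. The table lists 407 such copies, of which 13 reached a mean of 0.5 FPKM, and together they took 0.0681% to 0.116% of reads. The highest was MTATP6P1 on chromosome 1, a copy of MT-ATP6 that matches it at 98.5% of bases with 10 substitutions. It was at 559, 663 and 557 FPKM in shNC and 588, 1222 and 587 FPKM in shScamp1, so it was 18.0% of the MT-ATP6 level in replicate 2 and 8.99% to 12.9% in the other libraries. A stretch of 80 bases of both is shown because it holds 4 of the differences (C129T, A151C, A175G and A192G, with the MT-ATP6 base first and positions counted from 1 at the first base of the gene). The stretches lie at chrMT:8647-8726 and chr1:633816-633895 on the plus strand of GRCh38, from GENCODE 29, with the differing bases in capitals.
MT-ATP6: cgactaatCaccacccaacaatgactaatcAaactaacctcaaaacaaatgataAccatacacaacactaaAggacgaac
MTATP6P1: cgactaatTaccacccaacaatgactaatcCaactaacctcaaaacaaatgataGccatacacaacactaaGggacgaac

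MTND2P28 followed at a shNC mean of 219 FPKM and MTCO1P12 at 52.7 FPKM, and both match their parent genes at over 98% of bases. The other 10 (MTND1P23, MTCO3P12, MTND3P25, MTND4P12, MTCO3P43, MTND4LP14, MTND5P11, MTND3P10, MTND5P20 and MTCYBP18) were at 2.98 FPKM or less in shNC. None of the 13 passed in limma with all 6 libraries, and MTCO1P12 passed as lower without replicate 2 (limma log2 fold change -0.30, adjusted p = 0.0145). Levels of MT-ATP6 and MT-ND2 are thus uncertain by the share of their reads placed on these copies.

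Nuclear genes that make, cut and stabilise mitochondrial RNA were next compared, with other nuclear genes of mitochondrial function, from lists of known members. The counts below are from the fit with all 6 libraries unless stated, and stand beside 8.82% of all genes called higher and 5.17% called lower, or 14.7% and 13.2% without replicate 2. Pooled over all the lists, which extend to respiratory subunits, import, biogenesis and mitophagy, 9 of 304 genes (2.96%) were called higher and 20 (6.58%) lower. The higher calls were thus under the background share and the lower calls near it. All 9 higher calls came from the lists for mitochondrial DNA (2), biogenesis (1) and dynamics and mitophagy (6). None came from those for transcription, processing, decay or modification of mitochondrial RNA. Without replicate 2 the counts were 23 (7.57%) and 67 (22.0%), and all 29 genes called with all 6 libraries were called in the same direction there. The fits share their other libraries, so this is no independent support. Leaving out any 1 shNC library or shScamp1 replicate 3 instead left 3 to 5 higher and 1 to 5 lower.

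Of 10 genes for mitochondrial transcription, 1 fell and none rose, and 3 were lower without replicate 2. MTERF3, a regulator of mitochondrial transcription and ribosome assembly, went from 13.9 ± 0.486 to 9.74 ± 1.02 FPKM (SD, n = 3, limma log2 fold change -0.51, adjusted p = 0.0177). POLRMT, the mitochondrial RNA polymerase, and TFAM, which packages mitochondrial DNA, did not pass (limma log2 fold change 0.10, adjusted p = 0.465, and -0.23, adjusted p = 0.113). Of 21 genes for RNA processing and stability, 3 fell: TRMT10C, a subunit of the enzyme that cuts tRNA ends, from 33.8 ± 2.19 to 23.5 ± 0.368 FPKM (limma log2 fold change -0.52, adjusted p = 0.00625), the helicase DDX28 (-0.60, adjusted p = 0.0159) and FASTKD1 (-0.37, adjusted p = 0.0330). LRPPRC and SLIRP, which together stabilise mitochondrial mRNAs, had log2 fold changes of -0.34 (limma adjusted p = 0.0608) and -0.30 (adjusted p = 0.251). LRPPRC passed without replicate 2 (limma log2 fold change -0.42, adjusted p = 0.00251).

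Of 7 genes for mitochondrial RNA decay none passed with all 6 libraries, including SUPV3L1 and PNPT1, which form the degradosome (limma log2 fold changes -0.24 and 0.024, adjusted p = 0.136 and 0.846). Without replicate 2 the nuclease REXO2 passed as higher (limma log2 fold change 0.51, adjusted p = 0.00712). Of 25 RNA modification genes 1 fell, the pseudouridine synthase PUS1 (limma log2 fold change -0.56, adjusted p = 0.0323), and without replicate 2 there were 1 higher and 3 lower. Of 13 translation factors none passed with all 6 libraries, and the elongation factor TUFM passed as lower without replicate 2 (limma log2 fold change -0.20, adjusted p = 0.0235). Of 81 mitochondrial ribosomal proteins 4 (4.94%, close to the background share) fell with all 6 libraries (MRPL11, MRPL17, MRPL30 and MRPS25) and none rose, but 7 were higher and 17 lower without replicate 2. With all 6 the list had a median of -0.20 beside -0.022 over all genes tested. For nuclear genes averaging 20 FPKM or more the median was -0.25 from 1000 up to 2000 bases and -0.097 from 2000 up to 4000. The median gene length of the list was 2464 bases, and the part of length in its median was not tested. In a fit with the length trend removed, chosen after seeing the data, 14 of the 81 were called lower and none higher. Over all 15556 genes tested, that fit called 1363 lower and 1548 higher.

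Partners of the mitochondrially encoded subunits had lower medians with all 6 libraries than without replicate 2. Of 80 nuclear subunits of the respiratory complexes and ATP synthase 2 fell, both in complex I: NDUFB10 (limma log2 fold change -0.45, adjusted p = 0.0311) and NDUFV1 (-0.40, adjusted p = 0.0456). None rose. Their median log2 fold change was -0.37 with all libraries and -0.12 without replicate 2, where 18 were lower and 1 higher. In replicate 2 the median of these subunits was 0.66 below that of its sisters on the log2 scale. The median of the mitochondrial mRNAs was 0.58 above, with MT-ND3 below. The median length of the subunit genes was 2468.5 bases. In nuclear genes averaging 20 FPKM or more, the replicate 2 median was -0.55 from 1000 up to 2000 bases. It was -0.24 from 2000 up to 4000 bases. Median log2 fold changes in these classes were -0.25 and -0.097 with all 6 libraries. Without replicate 2 they were -0.067 and -0.029. The part of gene length in the subunit medians was not tested. In the fit with the length trend removed, 4 of the 80 were called lower and none higher, beside 1363 lower and 1548 higher of 15556 genes.

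Of 22 genes for abundant or import proteins 5 fell and none rose, and 14 were lower without replicate 2. The 5 included the ADP/ATP carrier SLC25A6, from 245 ± 2.21 to 172 ± 15.7 FPKM (limma log2 fold change -0.51, adjusted p = 0.0140), and the chaperonin HSPD1 (-0.40, adjusted p = 0.0199). HSPA9, TIMM44 and TIMM50 were the others. Of 19 genes for mitochondrial DNA 2 rose and 3 fell, and without replicate 2 there were 3 of each. The nucleotide kinase CMPK2 rose from 0.461 ± 0.0480 to 2.31 ± 0.115 FPKM (limma log2 fold change 2.11, adjusted p = 0.000699). Its shNC mean was under the filter of 0.5 FPKM, so CMPK2 entered the test only through its shScamp1 values. SAMHD1, a dNTP hydrolase, also rose (limma log2 fold change 0.61, adjusted p = 0.0329). The helicase TWNK, the topoisomerase TOP1MT and the pyrimidine nucleotide carrier SLC25A33 fell.

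Of 19 genes for mitochondrial dynamics and mitophagy 6 (31.6%) rose and none fell with all 6 libraries. Without replicate 2, 7 were higher and 2 lower, the latter OPA1, which fuses inner membranes, and MIEF1, which recruits the fission machinery (limma adjusted p = 0.0226 and 0.0366). SQSTM1, an autophagy receptor, rose from 39.9 ± 0.539 to 71.0 ± 0.446 FPKM (limma log2 fold change 0.83, adjusted p = 0.000657), and the receptor OPTN rose from 13.045 ± 0.172 to 20.8 ± 0.687 FPKM (0.67, adjusted p = 0.00146). TAX1BP1, CALCOCO2, BNIP3L and the kinase PINK1 were the others, and several of these act in autophagy of other cargo as well. Of 12 regulators of biogenesis 9 were tested, since PPARGC1A, ESRRB and ESRRG were under the filter of 0.5 FPKM. Of the 9, NFE2L2 rose (limma log2 fold change 0.38, adjusted p = 0.0210) and the coactivator PPARGC1B fell (-0.86, adjusted p = 0.0237). Without replicate 2, 3 of these regulators were higher and 3 lower.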

How the data were processed

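RNA-seq of 3 shNC and 3 shScamp1 libraries of NCI-N87 cells was analysed. The deposited table holds FPKM values computed by the authors, beside the length and coordinates of each gene. The submitters' processing notes name HISAT2 2.0.5, featureCounts 1.5.0-p3, DESeq2 1.20.0 and hg38, with no role given. All 58735 genes matched GENCODE 29 in start and end. The product of FPKM and length was a whole multiple of 1 step per library for 100% of values (tolerance 0.001), which gave reads per gene.

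Mitochondrial shares and ratios were compared with two-sided exact permutation tests over libraries. Genes averaging 0.5 FPKM or more were fitted with limma 3.58.1 in R 4.3.3 on log2(FPKM + 0.1), with a mean-variance trend and Benjamini-Hochberg adjustment over all 15556. Fold changes on this scale understate changes of low genes. A call needed an adjusted p under 0.05, and none of the 37 also passed a log2 fold change of 1. On simulated data for this comparison (15446 genes), 156 of 187 genes changed by 1.5 on the log2 scale (83.4%) were recovered and 8 unchanged genes were called. The simulation gave both groups the spread of the shNC libraries, with no outlying library and no length trend. Its rates therefore do not describe the real comparison with shScamp1 replicate 2 in it, or changes smaller than 1.5. Mitochondrial genes were all named; for each nuclear list up to 6 called members with the smallest p were named, with 6 regulators, the library RNAs, the expressed nuclear copies and the 5 nuclear genes at either end of the replicate 2 difference. Members and lists were chosen with earlier results of these data known. Alternatives covered the pseudocount, filter, scaling, trend, voom, a replicate block and each library left out. Library weights, removal of the gene-length trend and an unadjusted threshold were added after seeing the data. Python 3.11.15, pandas 2.3.3, numpy 2.4.6, scipy 1.17.1, statsmodels 0.14.6 and Biopython 1.88 were used.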

Additional observations from a re-analysis of the deposited data

How the results depend on the processing

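Without shScamp1 replicate 2, 13 of the 28 mitochondrial genes with enough reads changed the sign of their fold change, and 3 libraries a group limit every exact test. Leaving out each library in turn, the difference of shScamp1 from shNC ranged from -0.508 to 1.05 percentage points for the mitochondrial share, from -0.581 to 0.563 for the mRNA share, from 0.0754 to 0.487 for the rRNA share, and from -0.00266 to 0.00342 for the tRNA share, and the negative end of the first 2 came without shScamp1 replicate 2. The rRNA reads per 100 mRNA reads kept their direction (2.72 to 5.93), as did the MT-ND6 ratio (-6.04 to -1.07). Of the 13 mRNA shares, 1 to 3 were higher and 0 to 2 lower without overlap, and 1 was lower when shares of summed reads were used. Members called ranged from 0 to 1 higher and from 0 to 0 lower, the 1 being MT-RNR1 without shScamp1 replicate 2.

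The pseudocount, filter, scaling, trend, voom and block alternatives each called 0 members, as did the fit without the length trend, chosen after seeing the data; since 0 were called to begin with, this does not show stability. An unadjusted p, also chosen then, gave 1 higher and 1 lower. A fit with estimated library weights, chosen then too, called 3 higher and 3 lower and, in the nuclear lists, 32 higher and 159 lower. Its estimate did not converge, with a weight of 31.4 on shScamp1 replicate 3 and 0.0803 on replicate 2, so it rests almost wholly on 1 shScamp1 library and supports nothing here. Under it these log2 fold changes turned sign: MT-ND1 -0.10, MT-TN -0.091, MT-TY 0.032, MT-CO1 -0.14, MT-ATP8 -0.19, MT-ATP6 -0.042, MT-CO3 -0.16, MT-TR -0.021, MT-ND4L -0.16, MT-ND4 -0.072, MT-TS2 0.065, MT-TL2 0.32, MT-ND5 -0.064, MT-CYB -0.094 and MT-TP -0.0303. Scaling by total reads turned MT-CO1 (-0.024) and MT-TE (-0.044), as did scaling by nuclear reads (-0.016 and -0.036). Removing the length trend turned MT-CO2 (0.029), MT-ND6 (0.014) and MT-TE (-0.070). The cause was not tested.

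Leaving out single libraries turned the sign of 18 genes. Their log2 fold changes ranged from -0.063 to 0.22 for MT-ND1, -0.063 to 0.25 for MT-TN, -0.21 to 0.036 for MT-TC, -0.29 to 0.11 for MT-TY, -0.14 to 0.15 for MT-CO1, -0.087 to 0.067 for MT-CO2, -0.095 to 0.61 for MT-ATP8, -0.11 to 0.21 for MT-CO3 and -0.018 to 0.56 for MT-TR. They ranged from -0.12 to 0.34 for MT-ND4L, -0.054 to 0.22 for MT-ND4, -0.12 to 0.16 for MT-TS2, -0.19 to 0.36 for MT-ND5, -0.21 to 0.12 for MT-ND6, -0.093 to 0.19 for MT-TE, -0.056 to 0.40 for MT-CYB, -0.42 to 0.073 for MT-TT and -0.0093 to 0.38 for MT-TP.

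Calls in the nuclear lists ranged from 3 to 23 higher and from 1 to 67 lower with a library left out, the upper ends without shScamp1 replicate 2. A filter of 5 FPKM gave 4 higher. Lower calls were 10 with no filter, 31 scaled by total reads, 38 scaled by nuclear reads, 12 with no trend, 31 with voom and 44 with the length trend removed. With a replicate block, 4 were higher and 2 lower. The numbers do not pair the libraries: deviations of same-numbered libraries correlated at -0.035, 0.032 and 0.067, and shNC replicate 1 correlated best with shScamp1 replicate 2.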
